A study of Mus musculus with 2 samples.

Results

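Foxq1, Krt75, Krt23, Krt90 and Tgm6 are 5 genes of the differentiating hair follicle, and their transcripts were followed cell by cell in mouse back skin epidermis with and without epidermal Gli2. The genes were found by symbol among the 56694 genes of the count files, and all 5 were present. Their unique molecular identifiers (UMIs, each counting 1 captured RNA molecule) were read in the cells that passed the limits of the study, which ask for more than 1000 but fewer than 8000 detected genes and less than 15% of UMIs from mitochondrial genes, and cells were not clustered. Skin was taken on postnatal day 2 from control mice and from Gli2EKO mice, with 1 library of each. In Gli2EKO mice the K14Cre transgene, whose keratin 14 promoter is active in keratinocytes, removes the floxed Gli2 gene, so that other cell types of the skin keep it. The control library carries the label WT, and the methods of the study describe controls as floxed littermates without Cre, both on a C57BL/6N background. How many mice each library holds is not given in the sources used here.

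The hair follicle grows from the matrix, a pool of dividing keratinocytes at its base whose progeny form concentric layers. The medulla, cortex and cuticle make up the hair shaft, the inner root sheath surrounds it, and the companion layer lies between inner and outer root sheath. Foxq1 encodes a forkhead transcription factor whose loss in satin mice alters the medulla. Krt75 encodes a type II keratin known from the companion layer and the medulla, Krt90 another type II keratin, and Krt23 a type I keratin. Tgm6 encodes a transglutaminase, an enzyme family that cross-links proteins. Gli2 is a transcription factor that relays Hedgehog signals, and the comparison asks how hair lineage differentiation stands without it.

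The genes lie at 4 places of the genome (GRCm39). Krt90 (chr15:101460791-101471385) and Krt75 (chr15:101471780-101482339), with 9 exons each, follow one another on the minus strand of the type II keratin cluster, with 394 bases between them. Krt23 (chr11:99366873-99383963, minus strand, 8 exons) lies among type I keratin genes. Foxq1 (chr13:31740117-31744959, plus strand) consists of a single exon, and Tgm6 (chr2:129954336-129996152, plus strand) of 13. Foxq1, Krt75, Krt90 and Tgm6 each overlap 1 gene annotated on the opposite strand. The order of transcription runs from Krt75 into Krt90. Krt90 was found in 15 of the 50 control cells with at least 10 Krt75 UMIs and in 23 of the 4383 with none, and the 10 control cells richest in Krt75 (65 to 243 UMIs) held 0 to 2 Krt90 UMIs each. Whether RNA read past the end of Krt75 was counted as Krt90 was not tested.

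Promoter sequences of 4 of the 5 genes were matched by symbol in a RefSeq table of the GRCm38.p6 build, and 3 keratin promoters are printed because these genes were detected together in the same cells. Each line gives the 250 bases before the annotated start, 5′ to 3′ on the strand of the gene, with capitals marking a TATA-like ATAAAA or a LEF/TCF motif CTTTGAT.
Krt75: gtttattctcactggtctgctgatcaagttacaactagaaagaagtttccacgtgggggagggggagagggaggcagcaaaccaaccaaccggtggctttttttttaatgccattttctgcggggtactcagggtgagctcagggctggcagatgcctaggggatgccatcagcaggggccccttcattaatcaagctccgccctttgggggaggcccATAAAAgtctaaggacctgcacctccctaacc
Krt90: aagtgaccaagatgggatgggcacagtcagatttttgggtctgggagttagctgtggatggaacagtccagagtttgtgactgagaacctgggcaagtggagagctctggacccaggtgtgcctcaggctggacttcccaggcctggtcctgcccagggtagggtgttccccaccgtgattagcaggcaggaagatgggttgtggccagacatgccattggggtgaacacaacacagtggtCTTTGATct
Krt23: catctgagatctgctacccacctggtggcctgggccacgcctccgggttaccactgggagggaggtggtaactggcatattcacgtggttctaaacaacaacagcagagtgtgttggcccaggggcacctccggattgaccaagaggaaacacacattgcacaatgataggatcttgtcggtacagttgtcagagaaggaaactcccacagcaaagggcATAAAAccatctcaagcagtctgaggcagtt
In GRCm38.p6 these lie at chr15:101573905-101574154 for Krt75, chr15:101562951-101563200 for Krt90 and chr11:99493121-99493370 for Krt23, all on the minus strand. ATAAAA began 32 bases before the start of Krt75 and 31 before that of Krt23, was also found upstream of Tgm6 on the opposite strand, and occurs on either strand in 17.0% of 32851 promoters of this length. CTTTGAT began 9 bases before the start of Krt90 and occurs in 3.21% of promoters. A GLI motif, GACCACCCA (0.225% of promoters), and a forkhead motif, GTAAACA (3.17%), were in none of the matched windows. The motifs were searched on both strands, and no match overlapped another motif. A match says that these letters are present, and no binding was measured.

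The control library held 4844 cells past the filter with 67366296 UMIs, and the Gli2EKO library 3362 cells with 46703537 UMIs. The median cell had 12275.5 and 12169 UMIs, and no barcode was shared by the libraries. The targeted gene Gli2 was at 105 CPM (counts per 1000000 UMIs of the library) in control and 99.8 CPM in Gli2EKO cells. This does not check the label, since UMIs count the 3′ end of the transcript and the deleted exons are not given in the sources used here. Cells with at least 4 markers of fibroblasts, immune, endothelial, melanocyte, mural or Schwann cells made up 27.5% and 27.6% of the libraries, so the suspensions held more than keratinocytes. With 1 library per genotype there is no replicate check, no test was made, and the 95% intervals cover counting error only.

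Foxq1, the transcription factor, had 1083 UMIs in 300 control cells and 316 UMIs in 143 Gli2EKO cells, which is 16.1 CPM (15.1 to 17.1) and 6.77 CPM (6.04 to 7.55). The highest control cells held 46, 28 and 27 Foxq1 UMIs, and the highest Gli2EKO cells 18, 8 and 8. At least 10 Foxq1 UMIs were found in 27 control cells and in 1 Gli2EKO cell. The libraries thus differed most at the high end of Foxq1 content.

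Krt75 had 2923 UMIs in 461 control cells and 1285 UMIs in 171 Gli2EKO cells, at 43.4 CPM (41.8 to 45.0) and 27.5 CPM (26.0 to 29.1). Its UMIs sat in few cells: the richest cell held 243 in control and 285 in Gli2EKO skin, and the 10 highest cells carried 34.7% and 66.8% of all Krt75 UMIs. At least 10 Krt75 UMIs were found in 50 control and 21 Gli2EKO cells. Unlike Foxq1, Krt75 thus kept cells of very high content in the Gli2EKO library.

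Krt23 had 1367 UMIs in 315 control cells and 260 UMIs in 90 Gli2EKO cells, at 20.3 CPM (19.2 to 21.4) and 5.57 CPM (4.91 to 6.29). The highest cells held 109 and 29 Krt23 UMIs. Krt90, the keratin next to Krt75, was rare, with 149 UMIs in 78 control cells and 15 UMIs in 8 Gli2EKO cells (2.21 CPM, 1.87 to 2.60, and 0.321 CPM, 0.180 to 0.530). No cell of either library reached 10 Krt90 UMIs. The transglutaminase Tgm6 had 308 UMIs in 119 control cells and 78 UMIs in 36 Gli2EKO cells, at 4.57 CPM (4.08 to 5.11) and 1.67 CPM (1.32 to 2.08).

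**Figure D1:**
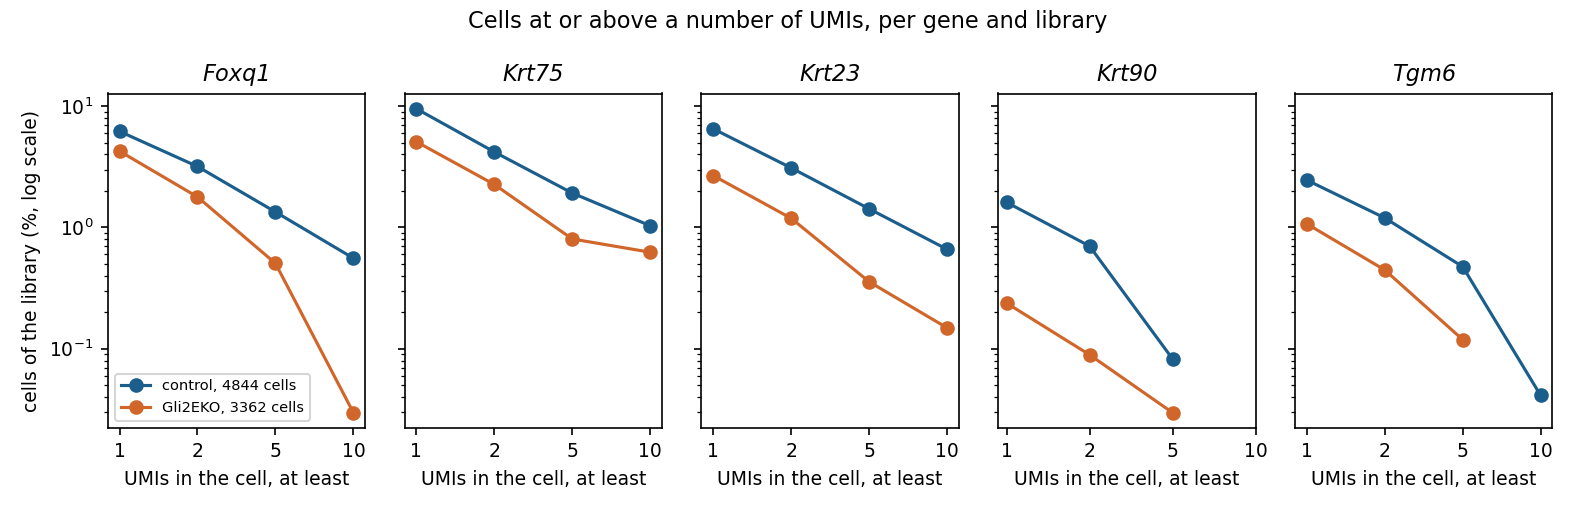
The share of cells (percent of each library, log axis) with at least 1, 2, 5 or 10 UMIs of each gene, with 1 line per library and points at 0 left out. The Gli2EKO line lies below the control line for all 5 genes, and for Foxq1 the gap widens towards 10 UMIs (27 control cells against 1 Gli2EKO cell).

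All 5 genes were at a lower CPM in the Gli2EKO library. The difference was 6.89-fold for Krt90 (95% interval 4.04 to 12.6), 3.65-fold for Krt23 (3.19 to 4.18), 2.74-fold for Tgm6 (2.13 to 3.56), 2.38-fold for Foxq1 (2.09 to 2.70) and 1.58-fold for Krt75 (1.48 to 1.69). As log2 ratios of CPM these are -2.78, -1.87, -1.45, -1.25 and -0.66, with a median of -1.45 over the genes against -0.11 over 21016 genes with at least 20 UMIs. Thus 4 of the 5, all but Krt75, were at least 2-fold lower. Of those 21016 genes 3.62% were at least 2-fold lower and 2.32% at least 2-fold higher. The paper had already reported slightly lower Krt90, Krt75, Krt23 and Foxq1 in a group of Gli2EKO matrix cells of the same libraries. The count of 4 of 5 is therefore a description and no independent support for a decrease. In separate back skin samples of older pups, the paper also reported significantly reduced Krt75 RNA in Gli2EKO mice by qRT-PCR. Without the 10 cells richest in Krt75 in each library, Krt75 too was at least 2-fold lower (log2 ratio -1.63). Tgm6 stood at -2.29 and Krt23 at -2.29 without their own 10 richest cells. These cuts were unequal, since Gli2EKO had fewer detecting cells. The 10 cells held 34.7% of Krt75 UMIs in control and 66.8% in Gli2EKO. For Tgm6 these shares were 28.9% and 60.3%, and for Krt23 33.4% and 50.4%. Part of the shift is therefore built into the cut.

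The sums were split into the number of cells with a UMI and the UMIs in such a cell, after thinning each cell to 5000 UMIs by random draws, because detection grows with depth. This left 4357 control and 3054 Gli2EKO cells. Foxq1 was detected in 157 control cells (3.60%, 3.07 to 4.20) and 63 Gli2EKO cells (2.06%, 1.59 to 2.63), Krt75 in 242 (5.55%, 4.89 to 6.28) and 78 (2.55%, 2.02 to 3.18), and Krt23 in 174 (3.99%, 3.43 to 4.62) and 45 (1.47%, 1.08 to 1.97). Krt90 was detected in 34 (0.780%, 0.541 to 1.09) and 3 (0.0982%, 0.0203 to 0.287), and Tgm6 in 65 (1.49%, 1.15 to 1.90) and 15 (0.491%, 0.275 to 0.809). Before thinning, the shares in control and Gli2EKO cells were 6.19% and 4.25% for Foxq1, 9.52% and 5.09% for Krt75, 6.50% and 2.68% for Krt23, 1.61% and 0.238% for Krt90 and 2.46% and 1.07% for Tgm6.

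The share of cells with a UMI, Gli2EKO over control, was 0.572 for Foxq1 (0.429 to 0.763), 0.460 for Krt75 (0.358 to 0.590), 0.369 for Krt23 (0.267 to 0.509), 0.126 for Krt90 (0.0411 to 0.386) and 0.329 for Tgm6 (0.189 to 0.572). The ratio of UMIs per detecting cell was 0.679 for Foxq1 (0.535 to 0.855) and 1.42 for Krt75 (1.25 to 1.60). The Krt75 value rested on few cells. Without the 10 richest of each library it was 0.881 (0.737 to 1.05). As CPM over the unthinned detecting cells without them it was 0.627 (0.563 to 0.697). Its direction thus turned, but the cut was unequal, since 242 control and 78 Gli2EKO cells had a Krt75 UMI after thinning. Leaving out the same number of cells lowers the Gli2EKO value more, so the direction was not settled. For Krt23 (0.889, 0.692 to 1.13), Krt90 (1.28, 0.451 to 2.98) and Tgm6 (0.825, 0.484 to 1.34) the interval held 1 after thinning. Without thinning the Krt23 ratio was 0.613 (0.535 to 0.700), with an interval below 1. Immune and endothelial cells, which should lack these genes, give the background of free RNA. Among 113 such control and 77 such Gli2EKO cells after thinning (median depth 11849 and 14692 UMIs before it), Foxq1 was found in 1 and 0, Krt75 in 1 and 0, Krt23 in 0 and 1, and Krt90 and Tgm6 in none. A count of 0 allows a share of up to 2.65% and 3.90% here, so these few cells do not bound the background below most of the shares above. Cells with at least 4 fibroblast markers, 966 in control and 677 in Gli2EKO, give a closer value: Foxq1 was found in 17 (1.76%) and 3 (0.443%), Krt75 in 21 (2.17%) and 7 (1.03%), Krt23 in 10 (1.04%) and 0, Krt90 in 2 (0.207%) and 0, and Tgm6 in 5 (0.518%) and 2 (0.295%). The shares over all cells lay above these for each gene and library, but the intervals overlapped in 5 of the 10 cases, which were Krt90 and Tgm6 in both libraries and Krt75 in Gli2EKO. Only for Foxq1 in both libraries, Krt23 in both and Krt75 in control did the interval lie wholly above that of the fibroblast-marker cells. Detecting cells had a median of 15054.5 UMIs for Foxq1 in the control library, against 12066.5 in the other cells.

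**Figure D2:**
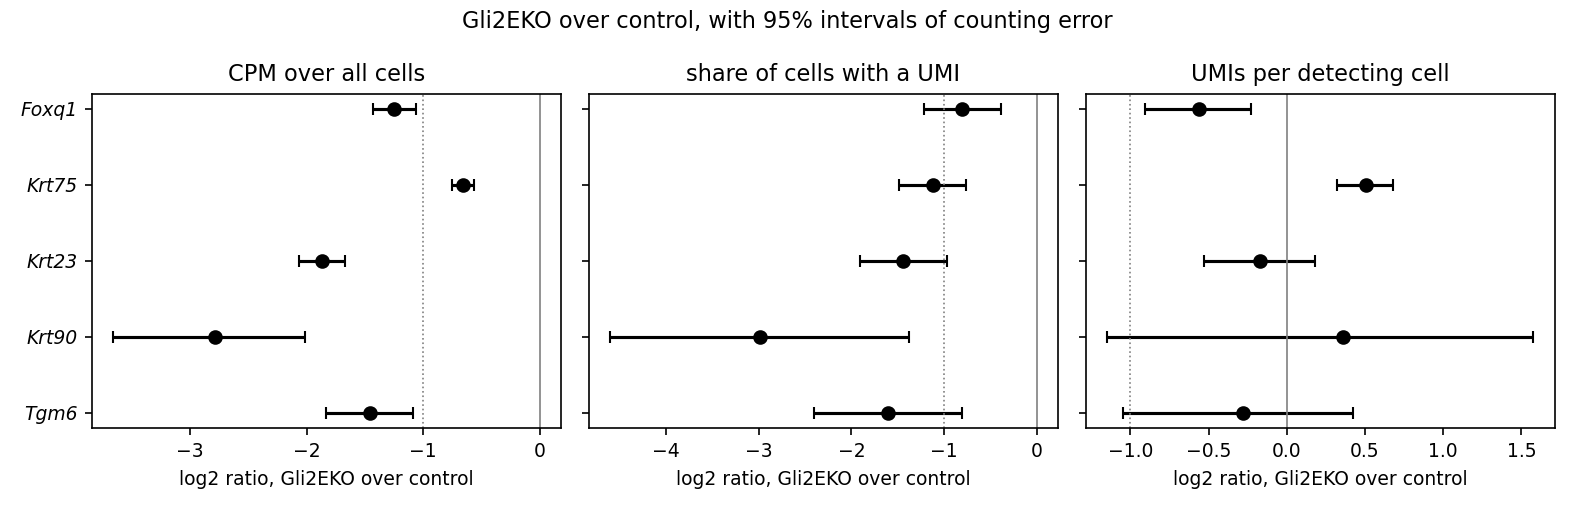
Log2 ratios, Gli2EKO over control, for each gene, with bars for 95% intervals of counting error, in 3 panels for CPM over all cells, the share of thinned cells with a UMI, and the UMIs per detecting cell. The first and second panels lie below 0 for all 5 genes. In the third, drawn with every detecting cell, Krt75 (1.42 on the linear scale) and Foxq1 (0.679) lie on opposite sides of 0. Without the 10 richest cells of each library, an unequal cut, Krt75 was at 0.881.

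The 5 genes were found in the same cells more often than the product of their single shares. In thinned control cells Foxq1 and Krt90 were found together in 23 cells against a product of 1.23 (ratio 18.8, 11.9 to 28.2), which is 67.6% of the cells with Krt90. Foxq1 and Tgm6 shared 35 cells (ratio 14.9), or 53.8% of the Tgm6 cells, and Krt23 and Krt90 shared 22 (ratio 16.2), or 64.7% of the Krt90 cells. The smallest excess was that of Krt75 and Krt23, with 41 cells against a product of 9.66 (ratio 4.24, 3.04 to 5.76). The other 6 pairs had ratios from 5.73 for Foxq1 and Krt75 to 21.7 for Krt90 and Tgm6, the last on 11 cells. The product treats all cells of a library as alike, and every pair shares the library and its mixture of cell types.

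In the Gli2EKO library the pairs were rarer, and those with at least 5 cells were again in excess of the product. Foxq1 and Krt75 shared 10 cells (ratio 6.21, 2.98 to 11.4), Foxq1 and Krt23 9 cells (9.70, 4.43 to 18.4), Krt75 and Krt23 7 cells (6.09, 2.45 to 12.5) and Foxq1 and Tgm6 5 cells (16.2, 5.25 to 37.7). The intervals of these 4 ratios overlapped those of the control library. The remaining pairs had between 0 and 3 cells.

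Cells with 3 or more of the 5 genes numbered 57 in the thinned control library (1.31%, 0.992 to 1.69) and 7 in the Gli2EKO library (0.229%, 0.0922 to 0.472), a ratio of 0.175 (0.0815 to 0.376). The product of the shares was 0.943 and 0.0459 cells. Such cells made up 11.8% of control cells with any of the genes and 4.05% of Gli2EKO cells with any of them (ratio 0.344, 0.162 to 0.719). Without thinning, all 5 genes were detected in 32 control cells and 1 Gli2EKO cell, and Krt75 by itself in 334 and 122, Krt23 by itself in 170 and 58, and Foxq1 by itself in 153 and 91. Krt90 and Tgm6 by themselves were in 7 and 34 control cells. Most cells with Krt75, Krt23 or Foxq1 thus held none of the others at this depth, while most control cells with Krt90 or Tgm6 did.

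**Figure D3:**
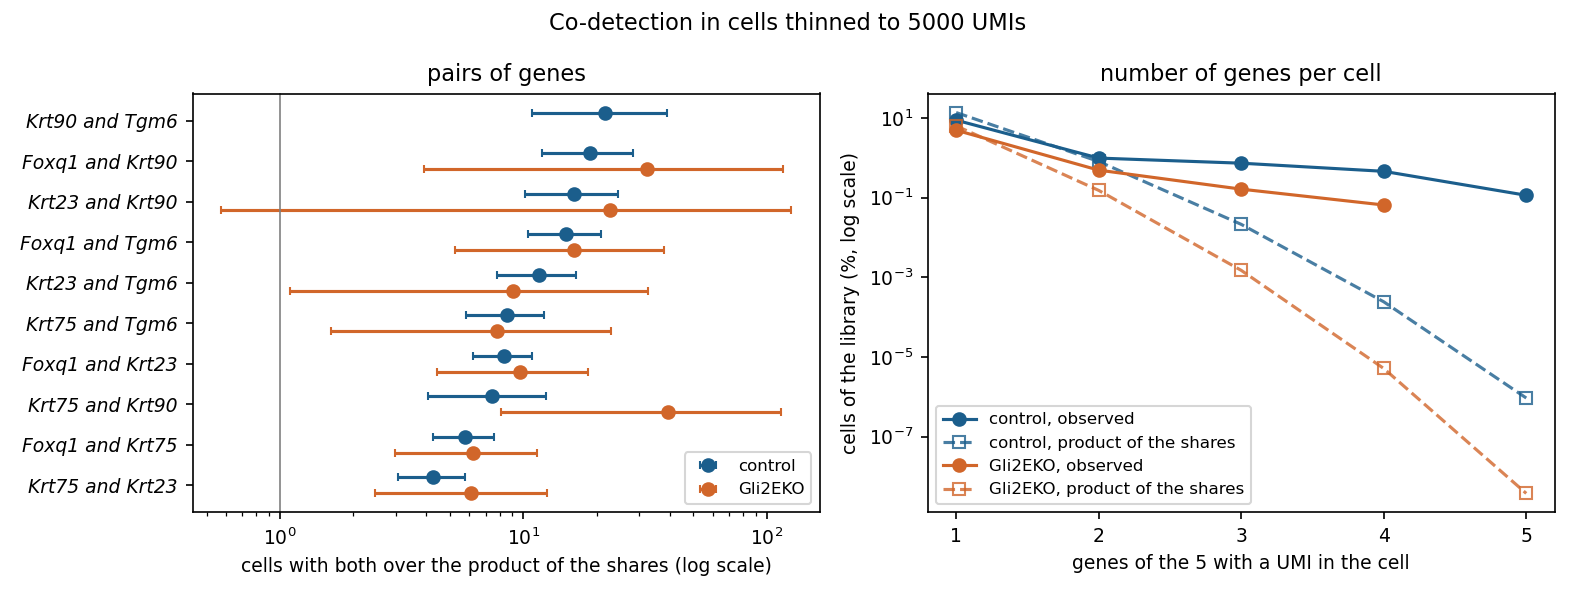
Left, the number of thinned cells with both genes of a pair over the product of their shares (log axis, bars for 95% Poisson intervals), by library, with a ratio of 0 left out. Right, the percent of cells (log axis) with 1 to 5 of the genes as observed (filled) and as the product of the shares (open), where the observed 57 control and 7 Gli2EKO cells with 3 or more genes lie above products of 0.943 and 0.0459 cells.

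Co-detection followed the amount of Foxq1. Among the 27 control cells with at least 10 Foxq1 UMIs, Krt75 was found in 26, Krt23 in 24, Tgm6 in 23 and Krt90 in 16. Among the 146 control cells with 1 Foxq1 UMI these were 21, 30, 14 and 6, and among the 4544 cells with none 365, 204, 48 and 31. The richest Foxq1 cell was an exception, with 46 Foxq1 UMIs, 130 Krt14 UMIs and none of the other 4 genes. Krt14 encodes a keratin of basal keratinocytes.

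In the Gli2EKO library 1 cell reached 10 Foxq1 UMIs. The 16 cells with 5 to 9 Foxq1 UMIs held Krt75 in 6, Krt23 in 3, Tgm6 in 3 and Krt90 in 1, where the 38 control cells of the same range held them in 22, 27, 18 and 14. In 8 of these 16 cells Krt6a was found, against 4 of the 38 control cells, and Krt14 stood at 12362 CPM against 2972 CPM. Krt6a encodes a keratin of the companion layer and the upper follicle.

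Co-detection with Foxq1, Krt23 and Tgm6 was less frequent in the control cells richest in Krt75. In the 43 control cells with 5 to 9 Krt75 UMIs, Foxq1 was found in 26, Krt23 in 24 and Tgm6 in 21, whereas in the 50 cells with at least 10 these were 13, 14 and 13. Krt90 was found in 14 of the 43 cells (32.6%) and 15 of the 50 (30.0%), so that its share was about the same. The richest control Krt75 cell, with 243 UMIs, held all of the other genes (6 UMIs of Foxq1, 5 of Krt23, 1 of Krt90 and 1 of Tgm6), and the richest Gli2EKO cell, with 285, held 3 Krt23 UMIs. Of the 10 control cells richest in Krt75, Krt90 was found in 4 and Foxq1, Krt23 and Tgm6 in 1, and 6 held none of the others. Of the 10 richest Gli2EKO cells 8 held none of the others. Of the 10 control cells richest in Krt23, 7 held none of the other 4 genes, among them those with 109, 79 and 68 Krt23 UMIs, while those with 20 and 19 held all 4.

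**Figure D4:**
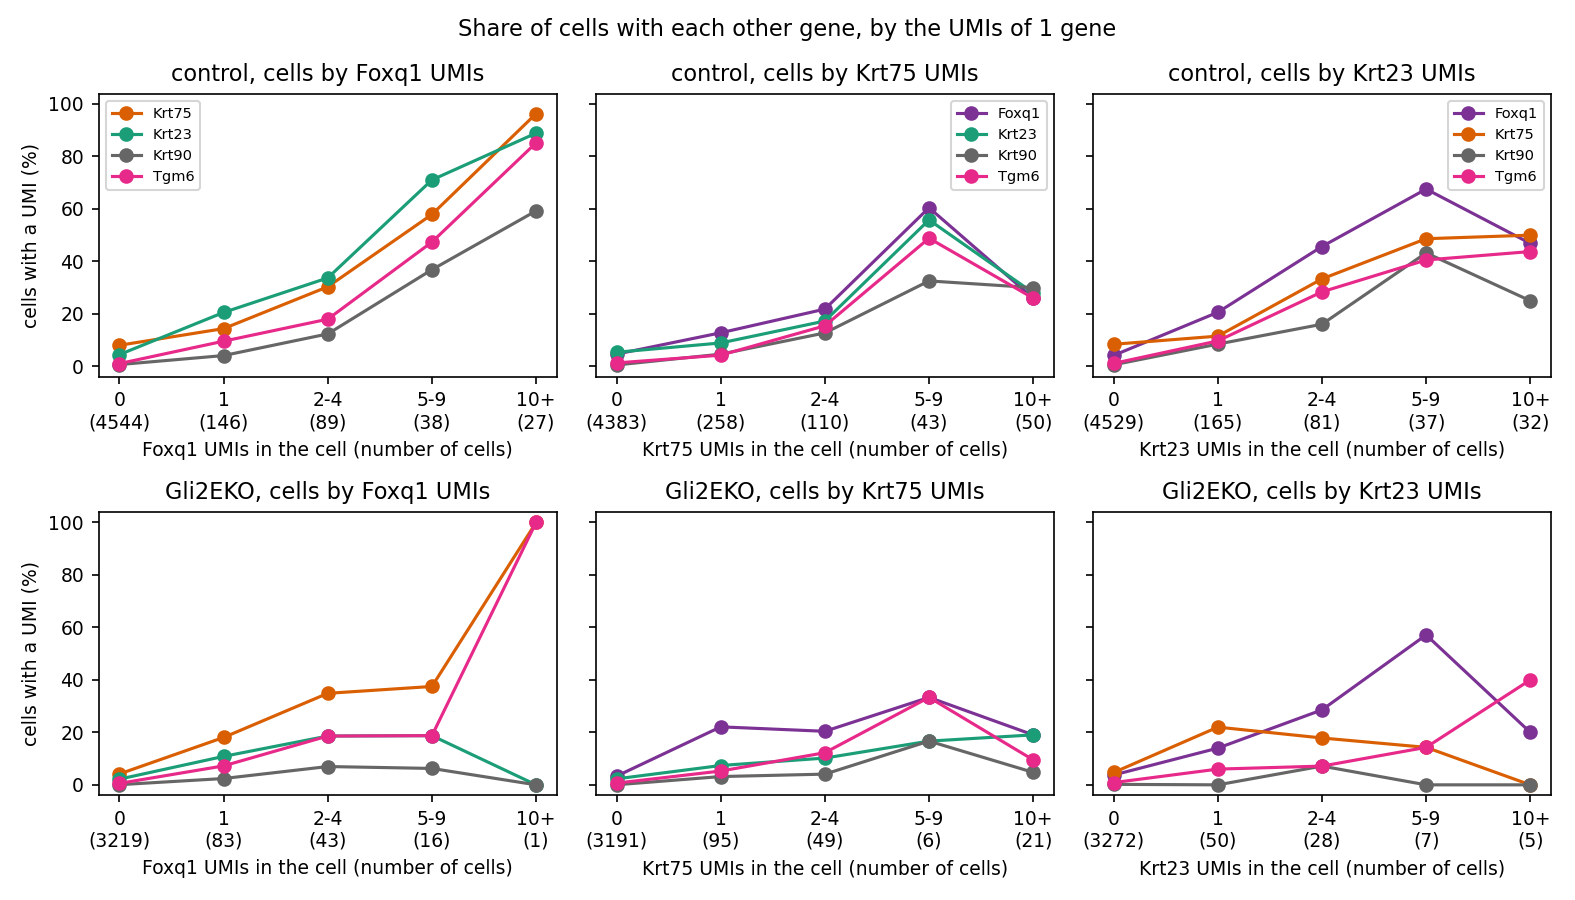
The percent of unthinned cells with a UMI of each other gene (vertical axis), in cells grouped by their UMIs of Foxq1, Krt75 or Krt23 (horizontal axis, with the number of cells), for the control (top) and Gli2EKO (bottom) library. In control cells the lines climb with Foxq1 up to 26 of 27 cells for Krt75, and drop again from 26 of 43 to 13 of 50 cells for Foxq1 in the cells richest in Krt75, but not for Krt90 (14 of 43 and 15 of 50); the Gli2EKO group at 10 or more Foxq1 UMIs is 1 cell.

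The cells with 3 or more of the genes had a common profile in both libraries. Gli3, which encodes a further Hedgehog transcription factor, was detected in all 57 control and all 7 Gli2EKO cells at 2344 and 1714 CPM, against 142 and 100 CPM in cells with none of the genes. Kitl, the ligand of the Kit receptor of melanocytes, stood at 3305 and 2743 CPM (86.7 and 69.6 CPM in cells with none), and Gpnmb, a transmembrane glycoprotein of melanosomes and other organelles, at 2056 and 2400 CPM (54.3 and 52.1). Ptch1, the Hedgehog receptor, was lower in the control cells, at 112 against 271 CPM. In Gli2EKO cells it was at 57.1 against 214 CPM, but it was found in 28.6% of the 7 cells. A lower value there thus rests on very few UMIs. Cells with none of the genes also include cell types other than keratinocytes.

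The 8 matrix genes summed to 2018 and 2743 CPM in these cells against 331 and 214 CPM in cells with none. The cell division list summed to less, at 670 and 57.1 CPM against 1468 and 1207 CPM. The matrix sum therefore does not say that these were dividing matrix cells. The inner root sheath list summed to no more than in cells with none (488 against 540 CPM in control, 229 against 378 CPM in Gli2EKO), and the suprabasal epidermis list was low (326 and 171 CPM against 2754 and 4994 CPM). The companion and upper follicle list peaked elsewhere, at 8191 and 36360 CPM in the 43 and 15 cells with exactly 2 of the genes, against 1207 and 1686 CPM in those with 3 or more. Markers of melanocytes, cells that also express Gpnmb, summed to 52.6 and 57.1 CPM against 804 and 919 CPM in cells with none. Of other cell types, immune markers summed to 3.51 and 0 CPM, endothelial markers to 3.51 and 0 CPM, and fibroblast markers to 600 and 1600 CPM against 6228 and 5453 CPM. The median depth before thinning of the cells with 3 or more genes was 12867 UMIs for control and 9158 UMIs for Gli2EKO.

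Gene lists of the hair follicle and epidermis were read in all thinned cells with a UMI of 1 gene, against the remaining cells. In Foxq1 cells, 5 of 8 matrix genes were at least 2-fold higher in both libraries and none lower, where 3% of 14626 genes were higher and 7.21% lower. The highest by level were Lef1 (701 against 179 CPM in control, 394 against 128 CPM in Gli2EKO), Hoxc13 (162 against 44.3 CPM, 85.7 against 35.1 CPM) and Dlx3 (130 against 41.7 CPM, 44.4 against 17.8 CPM), all encoding transcription factors of matrix and hair shaft. The companion and upper follicle list had 2 of 5 tested genes higher: Cst6, a cysteine protease inhibitor (2214 against 147 CPM, 5260 against 172 CPM), and Krt79, a keratin of the follicle opening (1401 against 231 CPM, 3867 against 331 CPM). The inner root sheath list had 1 of 7 higher, Krt73 (113 against 36.3 CPM, 85.7 against 40.5 CPM). The sebaceous gland list had 3 of 8 higher and none lower, with sums of 995 against 398 CPM in control and 981 against 403 CPM in Gli2EKO. These are sums over the Foxq1 cells, and they do not say that matrix and upper follicle genes were in the same cells.

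In Krt75 cells the matrix list had 5 of 8 genes higher and 2 lower, with 1.94% of all genes higher and 7% lower. Lef1 was at 381 against 187 CPM in control and at 300 against 129 CPM in Gli2EKO cells. Of the regulators of hair shaft formation 7 of 14 were higher, among them Cux1, a homeodomain factor (845 against 391 CPM, 508 against 173 CPM). No inner root sheath gene was 2-fold higher in both libraries: Krt71, a keratin of that layer, was at 208 against 109 CPM in control and at 246 against 71.2 CPM in Gli2EKO cells.

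Inner root sheath and cornified genes were higher in sums over the Krt23 cells, which do not say that most of these cells held them. At least 4 inner root sheath genes were found in 34 of the 174 control and 11 of the 45 Gli2EKO Krt23 cells. At least 4 suprabasal epidermis genes were found in 31 and 18 of them. The inner root sheath list had 6 of 7 tested genes at least 2-fold higher in both libraries and none lower, with 3.23% of all genes higher and 7.44% lower. Krt25 was at 660 against 151 CPM in control and 747 against 102 CPM in Gli2EKO cells, and Tchh (trichohyalin, of the inner root sheath and medulla) at 364 against 78.7 CPM and 4507 against 49.5 CPM. The suprabasal epidermis list had 5 of 8 higher, led in control by Lor (loricrin) at 3718 against 12 CPM and Flg (filaggrin) at 3203 against 22.2 CPM, both proteins of the cornified layer. Lor was at 547 against 19.4 CPM and Flg at 1658 against 79.6 CPM in Gli2EKO cells. The matrix list had 6 of 8 genes higher, with Lef1 at 755 against 175 CPM and 396 against 129 CPM.

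Krt90 and Tgm6 were read in the control library, since 3 and 15 detecting Gli2EKO cells were too few. In the 34 Krt90 cells 5 of 8 matrix genes were higher and 2 lower, with Lef1 at 1265 against 189 CPM. There 21% of all genes counted as higher and 15.3% as lower, a wide background on few cells. Of the suprabasal epidermis list 6 of 8 were lower (Krt10 at 52.9 against 1062 CPM), and of the outer root sheath and stem list 8 of 8. In sums over the 65 Tgm6 cells the inner root sheath list had 7 of 8 tested genes higher and 1 lower, with Tchh at 1142 against 74.1 CPM. The hair shaft list had 6 of 9 higher and 1 lower, with Krt35, a hair keratin, at 662 against 102.6 CPM. Only 7 of the 65 cells held at least 4 inner root sheath genes, and 2 at least 4 hair shaft genes. Over the 65 cells 13.9% of all genes were higher and 16.3% lower. Among the transglutaminases Tgm3 was at 73.8 against 21.9 CPM in Tgm6 cells.

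The genes whose values went most closely with each gene across cells overlapped for Foxq1, Krt90 and Tgm6, and by Pearson r not for Krt75 and Krt23. Likeness was the Pearson r of log counts per 10000 over the 4844 control and 3362 Gli2EKO cells, ordered by the lower of both among 15300 genes. These r values are descriptions, since the cells of a library share its preparation and its mix of cell types. For Foxq1 the nearest gene was Tgm6 (r = 0.574 in control and 0.477 in Gli2EKO cells), followed by Vat1l (0.525 and 0.410), Jakmip2, Bmper, Cyfip2, Aldh1a3, Gpnmb, Kitl, Adh6b and Prr5l. For Tgm6 it was Vat1l (0.534 and 0.515), then Foxq1, Gpnmb, Stra6, Bmper, Padi3, Kitl, Aldh1a3, Unc5b and Prr5l, and for Krt90 Vat1l (0.415 and 0.335), Jakmip2, Aldh1a3, Tgm6, Foxq1, Prr5l, Padi3, Krt23, Gpnmb and Adh6b. Aldh1a3, a retinoic acid synthesising enzyme, Gpnmb, Prr5l and Vat1l were in all 3 lists. For Krt90 the Gli2EKO r, the lower one for most genes of its list, rests on 8 cells with 15 UMIs. Its order and its overlap with the other lists are therefore uncertain.

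The 10 genes nearest to Krt75 and the 10 nearest to Krt23 held none in common with each other or with the lists of Foxq1, Krt90 and Tgm6. This separation did not hold by Spearman rho, where the Krt75 list held Foxq1 and Tgm6, the lists of Foxq1 and Krt90 held Krt75, Krt75 and Krt23 shared S100a3, and Foxq1 and Krt23 shared Ivl and Adgrf4. By Pearson r the genes nearest to Krt75 were Liph, a lipase required for hair growth (0.510 and 0.351), the Wnt ligand gene Wnt11 (0.391 and 0.310), the Wnt receptor gene Fzd5 (0.367 and 0.294), Tm4sf1, Slc39a8, Foxe1, Slc39a6, Tuba8, Hspb8 and Sct. Those nearest to Krt23 were Trex2 (0.364 and 0.395), Crct1 (0.333 and 0.329), Cnfn (0.286 and 0.414), Lypd5, Smpd3, Cpa4, Lce1a1, Cysrt1, Gsdma and Klk9, among them Cnfn and Lce1a1 of the cornified envelope. Among all genes with enough cells in the control library, Foxq1 nevertheless was the nearest to Krt23 (r = 0.474). In Gli2EKO cells the same pair had r = 0.187 and Foxq1 held place 50 of 15630.

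Cells chosen by genes other than the 5 were counted, and detection and level were read within them. Cells with at least 4 of the 8 matrix genes, after thinning, numbered 303 in the control and 73 in the Gli2EKO library (share ratio 0.344, 0.267 to 0.441). Among them Foxq1 was found in 42 (13.9%) and 10 (13.7%), a ratio of 0.988 (0.518 to 1.82), and Krt75 in 34 (11.2%) and 8 (11%), a ratio of 0.977 (0.472 to 1.95). Krt23 was found in 32 and 6 (0.778, 0.341 to 1.71), Krt90 in 10 and 2 (0.830, 0.206 to 3.24) and Tgm6 in 18 and 7 (1.61, 0.707 to 3.58). Lef1, Hoxc13, Msx2 and Dlx3 are also on the list of hair shaft regulators, so the choice does not by itself make them matrix cells. A difference in detection within these cells was not detectable at these cell numbers, and the intervals hold both a decrease and an increase. The level within them was lower for 3 genes when every UMI of the cells was summed, with log2 ratios of CPM of -0.95 for Foxq1 (-1.50 to -0.44), -1.63 for Krt75 (-2.21 to -1.11) and -0.74 for Krt23 (-1.39 to -0.15). One control cell carried 243 of the 450 Krt75 UMIs, and without the richest cell of each library the Krt75 value was -0.95 (-1.63 to -0.32). In thinned cells the intervals of all 5 genes held 0, with -0.67 for Foxq1 (-1.47 to 0.050), -0.28 for Krt75 (-1.08 to 0.44) and -0.62 for Krt23 (-1.75 to 0.35).

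A second choice used 9 genes of the likeness lists (Aldh1a3, Gpnmb, Prr5l, Vat1l, Adh6b, Bmper, Jakmip2, Kitl and Padi3), which were picked from these cells for going with Foxq1, Krt90 or Tgm6. Cells with at least 4 of them numbered 130 (2.98%) and 29 (0.95%), a ratio of 0.318 (0.214 to 0.473). The larger parts of the Krt90, Tgm6 and Foxq1 UMIs in these cells follow in part from that choice of genes. So do the smaller parts for Krt75 and Krt23. In the control library the cells held 84.9% of the thinned Krt90 UMIs, 83.8% for Tgm6, 61.7% for Foxq1, 38.8% for Krt23 and 19.8% for Krt75. In the Gli2EKO library the cells held 83.3% for Krt90 (of 6 UMIs), 65% for Tgm6, 25.5% for Foxq1, 9.64% for Krt23 and 7.71% for Krt75. Within them Foxq1 was found in 63 (48.5%) and 10 (34.5%), a ratio of 0.712 (0.401 to 1.14), and Krt75 in 52 (40.0%) and 10 (34.5%), a ratio of 0.862 (0.482 to 1.40). Krt90 (0.345, 0.0924 to 1.16) and Tgm6 (0.747, 0.385 to 1.31) were also found in a smaller share of the Gli2EKO cells, with intervals that held 1. Krt23 was found in 57 (43.8%) and 4 (13.8%), a ratio of 0.315 (0.123 to 0.717), the only share ratio of the 5 with an interval below 1. The level in the same cells, with every UMI summed, had intervals below 0 for 4 genes, with log2 ratios of CPM of -1.04 for Foxq1 (-1.49 to -0.62), -1.01 for Krt75 (-1.43 to -0.61), -2.36 for Krt23 (-3.24 to -1.60) and -1.08 for Krt90 (-2.24 to -0.10). In thinned cells this held for Foxq1 (-0.99, -1.66 to -0.37) and Krt23 (-1.96, -3.20 to -0.95), and the intervals of Krt75 (-0.33, -0.95 to 0.25) and Krt90 (-1.01, -2.70 to 0.32) held 0. Outside these cells Foxq1 had a ratio of 0.788 (0.565 to 1.10), Krt75 of 0.50 (0.381 to 0.656) and Krt23 of 0.490 (0.345 to 0.695). With every UMI summed, the chosen Gli2EKO cells held 9 Krt90 UMIs and 14 Krt23 UMIs. For each gene 5 of these were in 1 cell, while the intervals treat every UMI as independent.

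Suprabasal cells were more numerous and inner root sheath cells fewer in the Gli2EKO library. Cells with at least 4 suprabasal epidermis genes numbered 358 and 402 (share ratio 1.60, 1.40 to 1.83), and Krt23 was found in 31 (8.66%) and 18 (4.48%) of them, a ratio of 0.517 (0.296 to 0.901). Cells with at least 4 inner root sheath genes numbered 210 and 80 (0.543, 0.422 to 0.699), and Krt23 was found in 34 (16.2%) and 11 (13.8%), a ratio of 0.849 (0.451 to 1.55). Krt75 in the same cells was found in 28 and 8 (0.750, 0.358 to 1.52). Differences in cell makeup between the libraries and Gli2 loss cannot be told apart with 1 library each.

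Krt75 is known from more than 1 follicle layer, and its cells differed by whether Foxq1 was present. After thinning, 50 of the 242 control Krt75 cells and 10 of the 78 Gli2EKO Krt75 cells had a Foxq1 UMI. Krt75 itself was alike in both sets of control cells, with 676 CPM in those with Foxq1 and 681 CPM in those without. In Gli2EKO cells it was 520 and 1029 CPM. The sets were not of the same makeup in both libraries. The companion and upper follicle list summed to 1556 CPM with Foxq1 against 4141 CPM without it in control cells. In Gli2EKO cells the direction turned, with 9840 against 4853 CPM. Krt79 went the same way, at 152 against 684 CPM in control and 3240 against 271 CPM in Gli2EKO cells. Some cells without a Foxq1 UMI may have had Foxq1 RNA that was missed at this depth.

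The 10 genes most in excess in the Krt75 cells with Foxq1, by the weaker of the libraries, were Adh6b, Tgm6, Gpnmb, Aldh1a3, Prr5l, Zfhx3, Grik4, Vat1l, Cyfip2 and Krt23. Of 5745 genes 3.45% were at least 2-fold higher there in both libraries and 5.92% lower. Adh6b, an alcohol dehydrogenase gene, was at 608 against 5.21 CPM in control and at 500 against 5.88 CPM in Gli2EKO cells. Gpnmb was at 2024 against 47.9 CPM and 1660 against 55.9 CPM, and Krt23 at 324 against 22.9 CPM and 120 against 11.8 CPM. Tgm6 had 61 against 5 UMIs in control cells and 8 against 0 in Gli2EKO cells, and Krt90 17 against 2 and 5 against 1. Gli3 followed, at 2056 against 154 CPM and 1260 against 156 CPM, and 4 of the 5 matrix genes with enough UMIs were at least 2-fold higher in both libraries. The 3 matrix genes below that limit were not higher in the control cells with Foxq1, with 0 against 5 UMIs for Shh, 1 against 11 for Edar and 0 against 17 for Myb in the 50 cells with and the 192 without Foxq1, and each had 0 against 1 in Gli2EKO cells.

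The genes most in excess in the Krt75 cells without Foxq1 were Tagln, Ebf1, Il11ra1, Myl9, Foxe1, Tnc, Tbx1, Flrt2, Col4a1 and Pdlim1. Tagln, an actin-binding protein of contractile cells, had 777 UMIs in these 192 control cells and 3 in the 50 with Foxq1 (809 against 12 CPM), and 267 against 0 in Gli2EKO cells. The transcription factor genes Foxe1 (127 against 2 UMIs, 49 against 0) and Tbx1 (137 against 1, 37 against 0), the myosin light chain gene Myl9 (189 against 3, 82 against 0) and the matrix protein gene Tnc (119 against 2, 41 against 0) went the same way. Cell division genes were also lower with Foxq1, 6 of 8 in both libraries, with sums of 812 against 1751 CPM in control and 40 against 1224 CPM in Gli2EKO cells.

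Tagln is also a marker of mural cells, and the 8 mural markers summed to 1274 CPM in the control and 1115 CPM in the Gli2EKO Krt75 cells without Foxq1, against 64 and 20 CPM with it. Of that list 3 genes were at least 2-fold lower with Foxq1 in both libraries. Most of the sum was Tagln and Acta2 (403 UMIs in control and 89 in Gli2EKO cells without Foxq1), and Notch3 had 38 and 18 UMIs. Of the other markers Pdgfrb had 3 and 2 UMIs, Rgs5 2 and 2, Des 0 and 1, and Myh11 and Kcnj8 none. The part of mural cells in this difference was not tested.

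**Figure D5:**
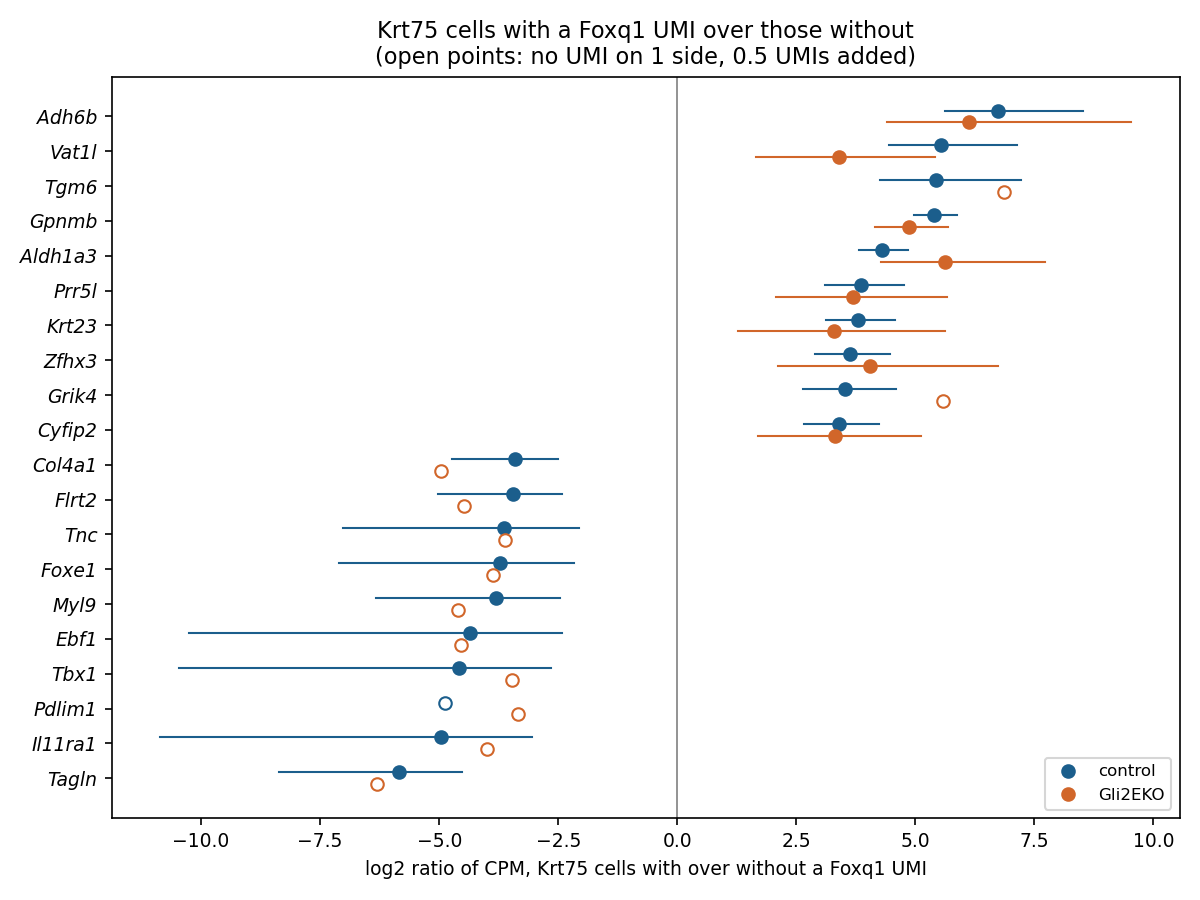
Log2 ratios of CPM (horizontal axis), thinned Krt75 cells with a Foxq1 UMI over those without, for the 10 genes most in excess on each side, in control (50 and 192 cells) and Gli2EKO (10 and 68 cells). Lines are 95% intervals of counting error, and open points had no UMI on 1 side, with 0.5 UMIs added. Both libraries lie on the same side of 0 for these 20 genes, as the rule of choice requires.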

How the data were processed

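Epidermal cells of postnatal day 2 back skin were measured with the 10x 3′ polyA assay. The authors processed the reads with Cell Ranger 9.0.1 against GRCm39 and deposited, per library, the filtered matrix of raw UMI counts for each gene and barcode. The matrices held 6326 control barcodes (71021773 UMIs) and 4296 Gli2EKO barcodes (48866478 UMIs). The genotype came from the labels. The study removed doublets with a tool that was not run here; doublets stayed in, and leaving out, per library, the top 8% of cells by Scrublet score (scanpy 1.11.5) was an alternative. Cells were thinned to 5000 UMIs with a fixed seed, which left out 487 control and 308 Gli2EKO cells.

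CPM were computed here over summed UMIs. Intervals at 95% were exact Poisson or Clopper-Pearson for single values, conditional binomial for log2 ratios and score intervals for ratios of shares. For ratios over all genes 0.5 UMIs were added. Cell choices required at least 4 genes of a list. Thinning, ratios and likeness were tested on simulated data. Alternatives used Python 3.11.15 and, for TMM scaling, edgeR 4.0.16 in R 4.3.3. Gene positions came from a later GENCODE release, matched by identifier. Krt85 was not found by symbol and was left out of the hair shaft list. Matched by identifier it had 3678 UMIs in control (54.6 CPM) and 1774 in Gli2EKO (38.0 CPM). The hair shaft sums and counts thus lack a keratin that was measured.

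The genes and lists were chosen with earlier results of these data known. Named genes are the 5, up to 4 genes of each list with the highest CPM in detecting cells, the 10 most like each gene, the 10 highest and 10 lowest ratios among genes with at least 50 UMIs in Krt75 cells, Gli3 and Gli2. Kitl, Gpnmb and Ptch1 in cells with 3 or more genes, Krt6a, Krt14, Krt71, Krt73, Krt90 in the split, and Acta2, Rgs5, Myh11 and Kcnj8 were named after their values were seen, as was the choice of cells by matrix or likeness genes.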

Additional observations from a re-analysis of the deposited data

How the results depend on the processing

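Without the cell filter, with median-of-ratios size factors and with another thinning seed, the results computed kept their direction and moved by less than their 95% interval. TMM scaling, which moves the median log2 ratio of all genes up from -0.11, gave -0.54 for Krt75. Removing the highest Scrublet scores gave -2.06 for Krt23, and leaving out cells with markers of other cell types gave -2.11 for Tgm6. Without the 10 richest cells of the gene the log2 ratios of CPM were -1.63 for Krt75, -2.29 for Krt23 and -2.29 for Tgm6. For each of these genes the cut removes a larger part of the UMIs in Gli2EKO than in control.

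Requiring 2 UMIs gave ratios of shares of 0.399 for Foxq1 and 0.15 for Tgm6. Without thinning, the level in detecting cells was 1.18 for Krt75 and 0.613 for Krt23, the latter with an interval below 1 (0.535 to 0.700). Without the 10 richest cells, added after the data were seen, it was 0.881 for Krt75, and without thinning as well 0.627 for Krt75, 0.497 for Krt23 and 0.542 for Tgm6. The same 10 cells are a larger part of the detecting Gli2EKO cells than of the detecting control cells. No value could be had for Krt90, whose 8 detecting Gli2EKO cells are all among these 10.

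Cells chosen by matrix genes were a choice made after the data were seen. With every UMI, their log2 ratios of CPM were -0.95 for Foxq1, -1.63 for Krt75, -0.74 for Krt23 and -0.064 for Krt90. For Tgm6 the direction turned, with 0.18. The ratios of shares were 0.988, 0.977, 0.778, 0.830 and 1.61. Among cells chosen by likeness genes, also added later, the log2 ratios were -1.04 (Foxq1), -1.01 (Krt75), -2.36 (Krt23), -1.08 (Krt90) and -0.36 (Tgm6), and the ratios of shares 0.862 for Krt75 and 0.747 for Tgm6. These settings hold fewer cells, and thinned UMIs gave smaller differences for Krt75 (-0.28 and -0.33).

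Co-detection over the product depended on depth, with larger ratios in thinner cells for most pairs. At 2000 UMIs it was 8.38 for Foxq1 and Krt75, 13 for Foxq1 and Krt23, 23 for Foxq1 and Tgm6, 6.85 for Krt75 and Krt23, 21.1 for Krt75 and Krt90, 15.4 for Krt75 and Tgm6 and 44.8 for Krt90 and Tgm6. Without thinning it was 3.36, 5.69 and 9.63 for Foxq1 with Krt75, Krt23 and Tgm6, 9.73 for Foxq1 and Krt90, 2.67 for Krt75 and Krt23, 5.47 for Krt75 and Tgm6 and 10.1 for Krt23 and Krt90, but 7.41 for Krt75 and Krt90, as at 5000, 8.79 for Krt23 and Tgm6, and 23.0 for Krt90 and Tgm6 (21.7 at 5000). Among cells chosen by matrix genes it was 4.03, 3.61, 6.49 and 4.81 for Foxq1 with Krt75, Krt23, Krt90 and Tgm6. For Krt75 with Krt90 and Tgm6 it was 3.56 and 4.95. For Krt23 with Krt90 and Tgm6 it was 3.79 and 3.68, and for Krt90 and Tgm6 it was 5.05.

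By Spearman rho 3, 4 and 2 of the 10 genes nearest to Foxq1, Krt75 and Krt23 were shared with those by Pearson r, and the lists of Krt75 and Krt23 were no longer apart from the others. With genes in at least 5% of cells 5, 0, 2 and 4 were shared for Foxq1, Krt23, Krt90 and Tgm6, since most of the named genes are in fewer cells. In Krt75 cells at 2000 UMIs the log2 ratio of Krt23 with over without Foxq1 was 2.68 (3.82 at 5000). With every gene of 1 UMI, 14.8% of genes were at least 2-fold lower.

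No paired analysis was possible because each genotype has 1 library and the labels give no replicate numbers. Krt90 (3 thinned Gli2EKO cells) and Tgm6 (15) limit what can be said of their level in detecting cells. Both libraries were prepared once, so library and genotype cannot be told apart.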
